A study of Rattus norvegicus with 6 samples.

Results

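Glul, the gene of glutamine synthetase, and 9 further genes known as markers of the hepatocytes around the central vein or as targets of Wnt signalling were followed in rat liver. The 10 genes are Glul, Oat, Rhbg, Slc1a2, Axin2, Lgr5, Tbx3, Lect2, Rnf43 and Znrf3. Every non-control array probe whose RefSeq transcript belongs to one of these symbols was taken, which gave 17 probes of 9 genes. No probe was matched to Znrf3, so it has no value here. All 9 genes passed the filter on dim probes, with 15 of the 17 probes, among 27642 genes measured on the arrays. Of these 27642, 10976 had a gene symbol and the rest were counted by accession, so a gene may enter more than once. Shares of all genes given below are over these units. The set was chosen on the TCEP and corn oil signals of Glul on these same arrays, so the treatment difference of the members is described and not tested.

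The 6 animals were male Sprague-Dawley rats of the outbred stock Crl:CD(SD), bought at 5 weeks of age, and liver RNA of each was hybridised to 1 one-colour array. In one group 3 rats were given TCEP, or tris(2-chloroethyl) phosphate, which is used as a flame retardant, at a daily dose of 400 mg per kg. The other 3 rats were given corn oil. Dosing lasted 9 weeks by the treatment protocol, whereas the series design names day 28 and every sample title carries the number 28. All TCEP arrays lay on one slide and all corn oil arrays on others, so slide and treatment cannot be told apart. Corn oil replicate 2 stood apart: it was alone on its slide, was scanned 23 days after the others and had the lowest share of probes well above background, 57.2%, against 61.6% to 64.4% on the other arrays. Member differences are therefore also given without it.

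In the liver lobule, blood flows from the portal tract to the central vein, and hepatocytes along this path carry different enzymes. Endothelial cells of the central vein release Wnt ligands, which stabilise beta-catenin in the nearest hepatocytes, and beta-catenin with its TCF partners then switches on genes of the pericentral zone. The innermost cells take up glutamate and ammonium that escaped urea synthesis upstream and join them into glutamine through Glul, while R-spondin receptors and the ubiquitin ligases Rnf43 and Znrf3 set how strongly these cells respond to Wnt.

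Glul had a signal of 4.53, 5.93 and 5.30 times the array's 75th percentile in TCEP replicates 1 to 3, against 9.45, 8.66 and 11.1 times in corn oil replicates 1 to 3. All 3 TCEP livers lay below all 3 corn oil livers. The mean log2 signal was 2.38 ± 0.20 in TCEP and 3.28 ± 0.18 in corn oil (SD, 3 animals each), a 1.86-fold lower level with a log2 difference of -0.89 ± 0.15 (SE). The second Glul probe gave 3.25, 3.99 and 3.91 times the 75th percentile in TCEP, against 7.21, 6.60 and 8.46 times in corn oil. It put the 6 animals in the same order as the first probe and had a log2 difference of -0.997 ± 0.14 (SE). Without corn oil replicate 2 the difference of the brighter probe was -0.97, and with each array left out in turn it lay between -0.98 and -0.79. A larger decrease in mean than that of Glul was found for 203 of the 27642 genes, or 0.734%. Since Glul was chosen on these same signals, this rank is a description and no test. In whole liver, fewer cells of a type and less RNA per cell cannot be told apart.

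**Figure D1:**
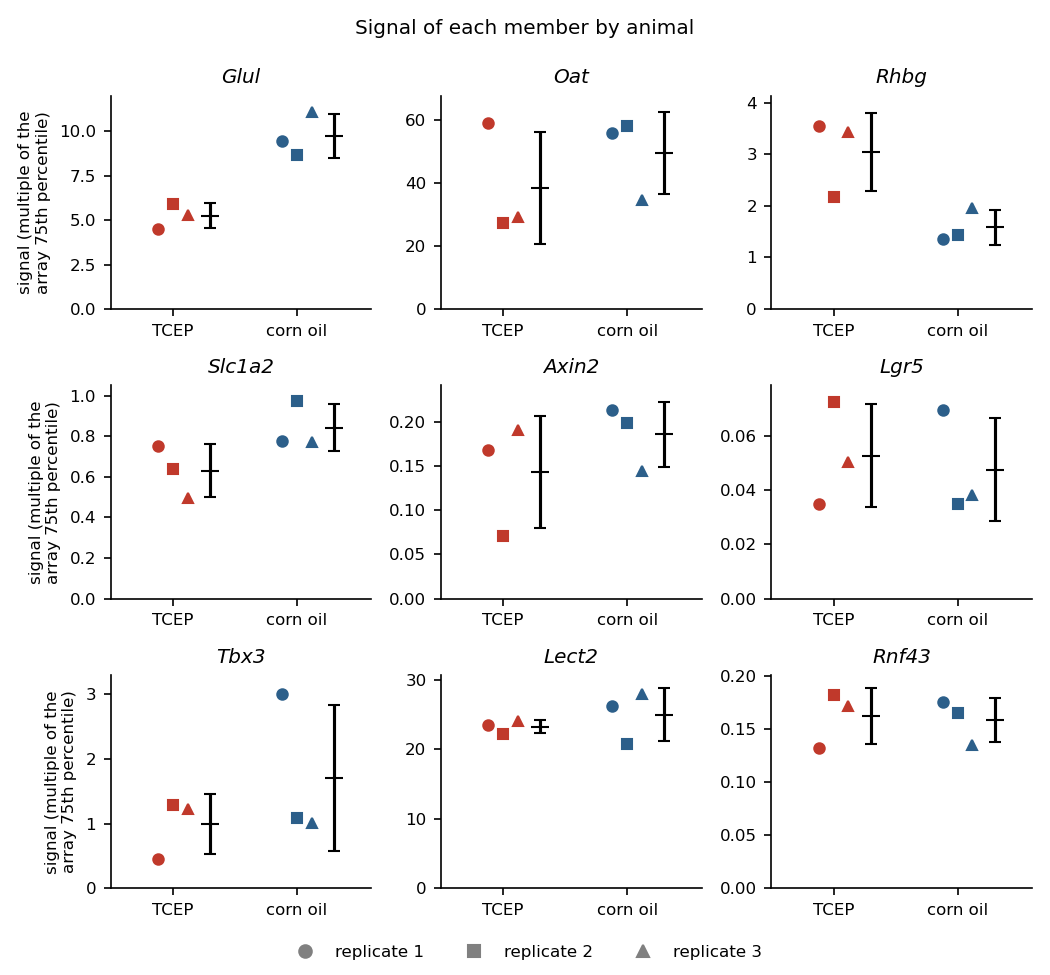
Signal of the brightest probe of each of the 9 measured members in every animal, as a multiple of the array's 75th percentile on a linear axis from 0; markers are animals, black bars the mean ± SD of 3 animals, TCEP left of corn oil. Glul separates the groups downwards (4.53 to 5.93 in TCEP, 8.66 to 11.1 in corn oil), Rhbg upwards (2.18 to 3.55 in TCEP, 1.35 to 1.97 in corn oil), and most other members overlap.

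Rhbg, an ammonium transporter of the basolateral membrane that in liver is known from the same pericentral hepatocytes as Glul, had the opposite pattern. Its signal was 3.55, 2.18 and 3.43 times the 75th percentile in TCEP replicates 1 to 3, against 1.35, 1.43 and 1.97 times in corn oil replicates 1 to 3. Every TCEP liver was above every corn oil liver, and TCEP replicate 2 lay nearest to corn oil. The mean log2 signal was 1.58 ± 0.39 in TCEP and 0.64 ± 0.29 in corn oil (SD, 3 animals each), a 1.91-fold higher level with a log2 difference of 0.93 ± 0.24 (SE). The difference was 0.87 without corn oil replicate 2 and lay between 0.81 and 1.16 with each array left out. Rhbg was read by 1 probe, so no second probe checks it.

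The ratio of Glul to Rhbg within an array does not depend on how arrays are scaled. As a log2 ratio of the probe signals it was 0.35, 1.44 and 0.63 in the TCEP livers, against 2.81, 2.60 and 2.50 in the corn oil livers. The corn oil livers lay close together and every TCEP liver lay below them. The log2 difference of Rhbg exceeded that of Glul by 1.83. Taken singly, Glul was lower and Rhbg higher in every TCEP liver than in every corn oil liver. The separation of the ratio follows from this and is no further result.

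The 250 bases upstream of the annotated starts of these genes are shown because Glul and Rhbg differed in opposite directions, and because Axin2 is widely used as a readout of TCF-driven transcription. They come from RefSeq on rat assembly GRCr8, each read 5′ to 3′ on the gene's strand, and capitals mark matches to a TCF-type core on either strand. The cores searched were the letters CTTTGAT, the letters CTTTGAA, the letters CTTTGTT and the letters CTTTGTA. They have the same length and differ in their last letters, so they cannot match at the same place on one strand. Glul has 2 annotated starts in the table, with windows at chr13:68519250-68519499 and chr13:68575816-68576065 on the plus strand. The Rhbg window is chr2:176015150-176015399 on the minus strand and the Axin2 window chr10:94398535-94398784 on the plus strand. The Axin2 window and the downstream Glul window lie inside the annotated genes, which begin at chr10:94393379 and chr13:68519500. The Rhbg window runs into its annotated gene, which ends at chr2:176015201. These windows are therefore not upstream of the whole gene.
Glul, upstream start: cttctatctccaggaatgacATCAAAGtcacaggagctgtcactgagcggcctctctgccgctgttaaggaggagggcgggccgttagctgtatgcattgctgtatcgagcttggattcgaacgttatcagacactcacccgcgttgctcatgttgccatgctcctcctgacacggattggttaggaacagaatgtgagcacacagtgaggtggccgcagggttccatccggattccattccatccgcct
Glul, downstream start: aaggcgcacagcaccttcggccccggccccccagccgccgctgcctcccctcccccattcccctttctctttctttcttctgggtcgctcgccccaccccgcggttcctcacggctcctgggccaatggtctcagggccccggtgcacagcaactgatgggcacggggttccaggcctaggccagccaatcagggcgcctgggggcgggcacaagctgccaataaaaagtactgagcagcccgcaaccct
Rhbg: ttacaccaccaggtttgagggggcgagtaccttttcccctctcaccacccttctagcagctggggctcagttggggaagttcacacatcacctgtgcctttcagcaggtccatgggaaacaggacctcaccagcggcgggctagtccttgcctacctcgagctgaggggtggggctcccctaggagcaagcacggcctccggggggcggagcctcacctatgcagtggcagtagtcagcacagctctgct
Axin2: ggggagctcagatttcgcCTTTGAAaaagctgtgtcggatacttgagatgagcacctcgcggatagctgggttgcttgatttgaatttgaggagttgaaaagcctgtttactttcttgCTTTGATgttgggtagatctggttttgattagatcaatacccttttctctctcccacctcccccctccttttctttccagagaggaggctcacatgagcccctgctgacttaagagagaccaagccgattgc
The upstream Glul window held 1 match, which began 230 bases before the start, and the downstream Glul window and the Rhbg window held 0. The Axin2 window held 2, which began 232 and 132 bases before the start.

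Of the 7 members with a promoter in the table, 4 held at least 1 match (Glul, Slc1a2, Axin2 and Lect2), in 4 of 9 windows. In Slc1a2 it lay in 1 of 2 windows (chr3:109507697-109507946, plus strand) and in Lect2 it began 68 bases before the start (chr17:8049784-8050033, plus strand). The Oat, Rhbg and Rnf43 windows held 0. Over all 33469 windows of the same length 14.9% held a match. The Slc1a2 window with a match and the Rnf43 window lie inside their annotated genes, which begin at chr3:109460109 and chr10:72958744. Such a match describes letters in a short window and is not a binding site.

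Slc1a2, a high-affinity glutamate transporter, supplies glutamate to the Glul cells. Its brightest probe read 0.754, 0.641 and 0.497 times the 75th percentile in TCEP replicates 1 to 3, against 0.777, 0.976 and 0.770 times in corn oil replicates 1 to 3. The TCEP values lay below the corn oil values, but TCEP replicate 1 and corn oil replicate 3 nearly touched. The log2 difference was -0.43 ± 0.18 (SE), or 1.34-fold lower, and the other probes gave -0.45 ± 0.17 and -0.64 ± 0.26. The dimmest of the 3 probes had groups that overlapped. The difference of the brightest probe was -0.32 without corn oil replicate 2 and -0.27 without TCEP replicate 3.

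Oat, ornithine aminotransferase, makes glutamate from ornithine in the mitochondria of the same zone. Its signal was 58.8, 27.2 and 29.2 times the 75th percentile in TCEP replicates 1 to 3, against 55.6, 57.9 and 34.5 times in corn oil replicates 1 to 3. TCEP replicate 1 was as high as the highest corn oil livers, corn oil replicate 3 was low, and the groups overlapped. The log2 difference was -0.42 ± 0.35 (SE), and the second probe gave -0.47 ± 0.33 with the same animals high and low. Without TCEP replicate 1 it was -0.77 and without corn oil replicate 2 it was -0.28. The animals of one group thus differed by more than the group means did.

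Lect2, a secreted protein whose liver gene is a beta-catenin target in mice, was nearly level. It read 23.5, 22.2 and 24.1 times the 75th percentile in TCEP, against 26.2, 20.7 and 28.0 times in corn oil. The TCEP values lay inside the corn oil range. The log2 difference was -0.09 ± 0.14 (SE), with a 95% interval from -0.42 to 0.24. Without corn oil replicate 2 it was -0.22.

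Tbx3, a T-box transcription factor and a beta-catenin target in liver, varied most between animals. It read 0.455, 1.28 and 1.23 times the 75th percentile in TCEP replicates 1 to 3, against 3.01, 1.09 and 1.01 times in corn oil replicates 1 to 3. Corn oil replicate 1 was far above the other livers and TCEP replicate 1 far below, and the remaining 4 lay together. Both Tbx3 probes placed these animals at the extremes. The log2 difference was -0.73 ± 0.57 (SE) for the brighter probe and -0.61 ± 0.32 for the other. Without corn oil replicate 1 the brighter probe gave -0.23, without TCEP replicate 1 -0.25 and without corn oil replicate 2 -0.96.

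The 3 measured feedback genes of the Wnt response gave no common direction. Axin2, a scaffold of the complex that destroys beta-catenin and itself a Wnt target, read 0.168, 0.0707 and 0.191 times the 75th percentile in TCEP replicates 1 to 3, against 0.214, 0.199 and 0.145 times in corn oil replicates 1 to 3. TCEP replicate 2 was low and the others overlapped, so the log2 difference of -0.48 ± 0.40 (SE) was -0.03 without TCEP replicate 2. Without corn oil replicate 2 it was -0.42, and with normexp background correction it was -0.24. Rnf43, a ubiquitin ligase that removes Frizzled receptors from the cell surface, read 0.133, 0.183 and 0.172 times in TCEP, against 0.176, 0.165 and 0.135 times in corn oil. Its groups overlapped throughout, and its log2 difference of 0.03 ± 0.17 (SE) had a 95% interval from -0.38 to 0.43. Without corn oil replicate 2 the Rnf43 difference was 0.06. The second Rnf43 probe gave -0.05 ± 0.41, so the probes disagreed in direction, and the sign of the difference changed in 6 of 19 alternative settings.

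Lgr5, an R-spondin receptor of the hepatocytes next to the central vein, was close to the limit of the arrays. Its brightest probe read 0.0349, 0.0727 and 0.0504 times the 75th percentile in TCEP, against 0.0694, 0.0350 and 0.0383 times in corn oil, and it was well above background on 3 of 3 TCEP and 2 of 3 corn oil arrays. The groups overlapped, with a log2 difference of 0.15 ± 0.36 (SE) and a 95% interval from -0.72 to 1.02. Without corn oil replicate 2 the difference was -0.03, and with normexp correction it was -0.05. Of the other probes, one was well above background on 1 corn oil array and 0 TCEP arrays, and one on 0 arrays of either group.

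**Figure D2:**
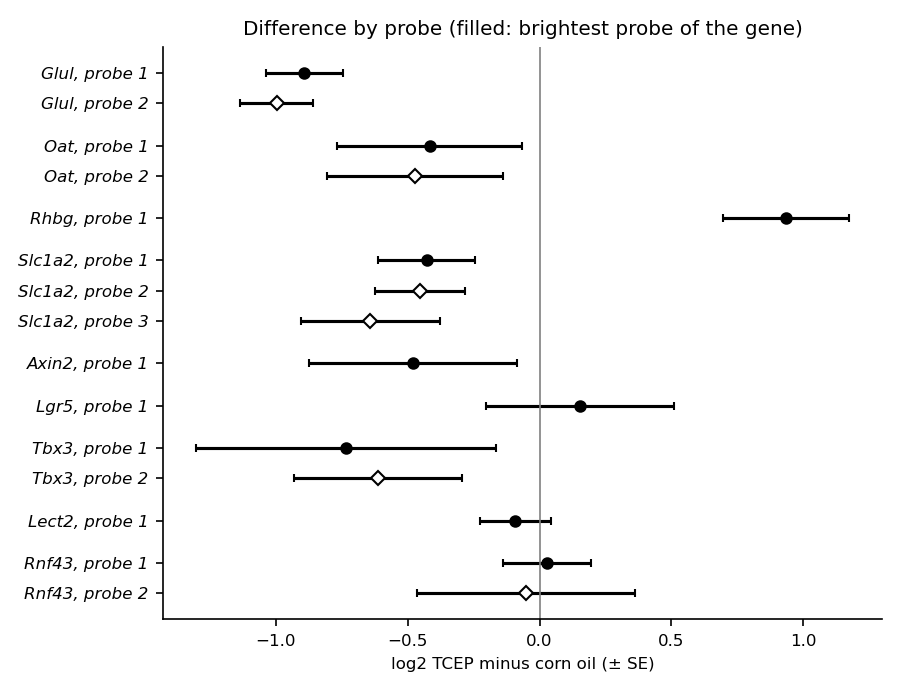
Log2 difference, TCEP minus corn oil, with its standard error for each of the 15 probes kept (3 animals per group); filled circles are the brightest probe of a gene and open diamonds its further probes. The Glul probes lie at -0.89 and -0.997, the single Rhbg probe at 0.93, and the Slc1a2, Oat and Tbx3 probes of a gene lie on the same side of 0.

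Set side by side, 6 of the 9 measured members had a lower and 3 a higher mean in TCEP, while 49.1% of all genes had a lower mean. Glul and Slc1a2 were the 2 members whose TCEP values all lay below the corn oil values, a pattern seen in 7.06% of all genes. Rhbg was the 1 member with all TCEP values above, a pattern seen in 10.3% of all genes. Nothing is read from these counts, since the set was chosen with this comparison known. By limma with Benjamini-Hochberg adjustment, 0% of all genes reached the 0.05 threshold. At an unadjusted p under 0.05 it gave 2543 genes, 4.19% of all genes as lower and 5.01% as higher. The median log2 difference of the 8 measured members other than Glul was -0.25, against 0.00480 over all genes, and it was -0.25 without corn oil replicate 2 and -0.09 without TCEP replicate 2.

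Glul was then set against the mean log2 signal of the other 8 members within each array. The difference was 2.13, 2.57 and 2.25 in the TCEP livers, against 2.79, 2.98 and 3.46 in the corn oil livers. The groups did not overlap, and the group means differed by -0.76. This is a description, since Glul was the gene the set was chosen on, and the mean of the others includes the dim Lgr5. Relative to single members, the log2 ratio of Glul kept the TCEP livers below every corn oil liver for Rhbg, Lect2 and Rnf43, and the groups overlapped for Oat, Slc1a2, Axin2 and Tbx3. The ratio to Lgr5 is not read, since its probe was not well above background in corn oil replicate 2.

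**Figure D3:**
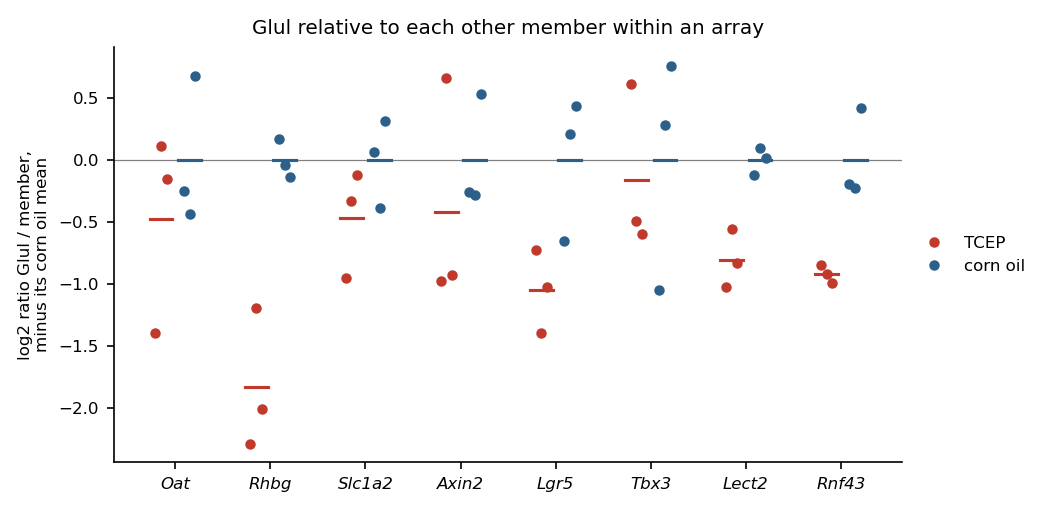
Log2 ratio of Glul to each of the other 8 members within an array, minus the mean of that ratio in the corn oil livers; points are animals (3 per group), lines are group means. The ratio to Rhbg is 1.83 lower in TCEP than in corn oil with no overlap, while the ratios to Oat, Slc1a2, Axin2 and Tbx3 overlap between groups. The gap for Rhbg follows from the values of Glul and Rhbg taken singly.

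The other pericentral genes were taken from a list of 20, all of them measured. Of these, 0 passed the adjusted threshold in either direction, 9 had a lower and 11 a higher mean in TCEP, and the median log2 difference was 0.09. Values did not overlap between groups in 1 gene that was lower and 3 that were higher in TCEP. Over all genes these shares were 7.06% and 10.3%. Cyp2e1, the ethanol-metabolising P450 that marks this zone, read 422, 317 and 452 times the 75th percentile in TCEP, against 441, 317 and 359 times in corn oil, a log2 difference of 0.09 ± 0.19 (SE). Aldh3a2, a fatty aldehyde dehydrogenase, had 0.20 ± 0.13. The largest differences without overlap were those of Cyp7a1, the first enzyme of bile acid synthesis (-1.74 ± 0.49), and Aldh1a1, a retinal dehydrogenase (1.13 ± 0.34). Over all genes 49.1% had a lower mean, close to the split of this list, so nothing is read from it.

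Hepatocytes at the portal end of the lobule lie where Wnt activity is low. Of 22 listed periportal genes 20 were measured, 0 passed the adjusted threshold, and the median was -0.10. The mean in TCEP was lower in 15 and higher in 5, while 49.1% of all genes had a lower mean. Fbp1, of gluconeogenesis, had a log2 difference of 0.04 ± 0.11 (SE) and albumin (Alb) -0.19 ± 0.09. Hsd17b6, a steroid dehydrogenase, had -1.39 ± 0.22, and it and Alb were the 2 genes of the list whose groups did not overlap. Both were lower in TCEP, a pattern seen in 7.06% of all genes. Gls2, the liver glutaminase that releases ammonium at the portal end, read 119, 89.1 and 68.3 times in TCEP, against 112, 97.9 and 78.4 times in corn oil, and so overlapped fully.

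Upstream of the target genes stand the ligands and their receptors. Of 25 listed Wnt ligands, R-spondins and release factors 9 were measured, with 0 past the threshold and a median log2 difference of -0.15. Wnt9b, a ligand that central vein endothelium makes in mice, read 0.04999, 0.0528 and 0.0608 times the 75th percentile in TCEP, against 0.0610, 0.0804 and 0.0710 times in corn oil. The groups met without overlapping, the log2 difference was -0.37 ± 0.14 (SE), and its other probe gave -0.12. Rspo3, the R-spondin of the central vein, had -0.12 ± 0.14, with overlapping groups, and Porcn, which attaches the lipid that Wnt ligands need, -0.18 ± 0.16. Wnt2, the other central vein ligand, had no probe that passed the filter. Of 17 receptors and co-receptors 12 were measured, 0 passed and 0 had groups without overlap, with a median of -0.14. Over all genes, 7.06% were lower and 10.3% higher without overlap. The bright members Fzd1 and Lrp5, a Frizzled receptor and its co-receptor, had -0.33 ± 0.38 and -0.14 ± 0.12.

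Inside the cell, 21 of 26 genes of beta-catenin turnover and transcription were measured, 0 passed and the median was -0.06. Beta-catenin itself (Ctnnb1) read 0.855, 0.920 and 0.993 times in TCEP, against 0.798, 0.837 and 1.07 times in corn oil, a log2 difference of 0.04 ± 0.14 (SE) with overlap. Dvl1 and Csnk1d, which pass on and tune the signal, had -0.06 ± 0.10 and -0.01 ± 0.20. Axin1, the constitutive relative of Axin2, had -0.25 ± 0.09 and Tcf7l1, a TCF factor, -0.31 ± 0.12, both with TCEP below corn oil in all animals. Csnk1e, another kinase of the pathway, had 0.25 ± 0.09 with TCEP above in all animals. In the whole list, groups did not overlap in 2 lower and 2 higher genes. Over all genes these shares were 7.06% and 10.3%, and nothing is read from the counts. Further probes of Tcf7l1 reached 0.07 and of Csnk1e -0.42, so the probes of both genes disagreed in direction.

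Among further Wnt targets 7 of 15 were measured, 0 passed, 6 had a lower mean in TCEP and the median was -0.23. A lower mean was found in 49.1% of all genes. Ascl2, a transcription factor induced by Wnt in intestinal stem cells, read 0.440, 0.541 and 0.462 times the 75th percentile in TCEP, against 0.638, 0.660 and 0.638 times in corn oil. Its groups did not overlap, with a log2 difference of -0.43 ± 0.11 (SE), and its other probe gave -0.42. It was the 1 gene of the list without overlap, and 7.06% of all genes were lower in this way. Notum, a secreted enzyme that inactivates Wnt ligands, had -0.23 ± 0.22 and the cyclin Ccnd1 -0.59 ± 0.38, both with overlap. Among Wnt inhibitors, a list that also holds Notum, 7 of 18 were measured, 0 passed and the median was -0.15, and Frzb, a secreted Wnt antagonist, had -0.34 ± 0.27.

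Around glutamine, 22 of 26 listed genes of glutamine, glutamate and ammonia handling were measured, and 0 passed. Means were lower in 10 and higher in 12, with a median log2 difference of 0.02, and groups did not overlap in 3 lower and 3 higher genes. Over all genes 49.1% had a lower mean, and 7.06% were lower and 10.3% higher without overlap. Asns, which uses glutamine to make asparagine, read 3.30, 3.93 and 7.47 times the 75th percentile in TCEP, against 2.03, 0.694 and 3.30 times in corn oil. The groups touched, and the log2 difference was 1.46 ± 0.61 (SE). Pycr1, of proline synthesis, had 0.97 ± 0.28, although its 3 probes ranged from 0.03 to 0.97. Corn oil replicate 2 was the lowest of the 6 livers for both Asns and Pycr1, and differences without it are not given here. Rhag, an ammonium channel of red cells related to Rhbg, had -0.84 ± 0.33 and was well above background on 2 of 3 TCEP arrays. The bright mitochondrial enzymes Glud1, glutamate dehydrogenase, and Aldh4a1, of proline breakdown, had 0.02 ± 0.28 and 0.16 ± 0.11.

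**Figure D4:**
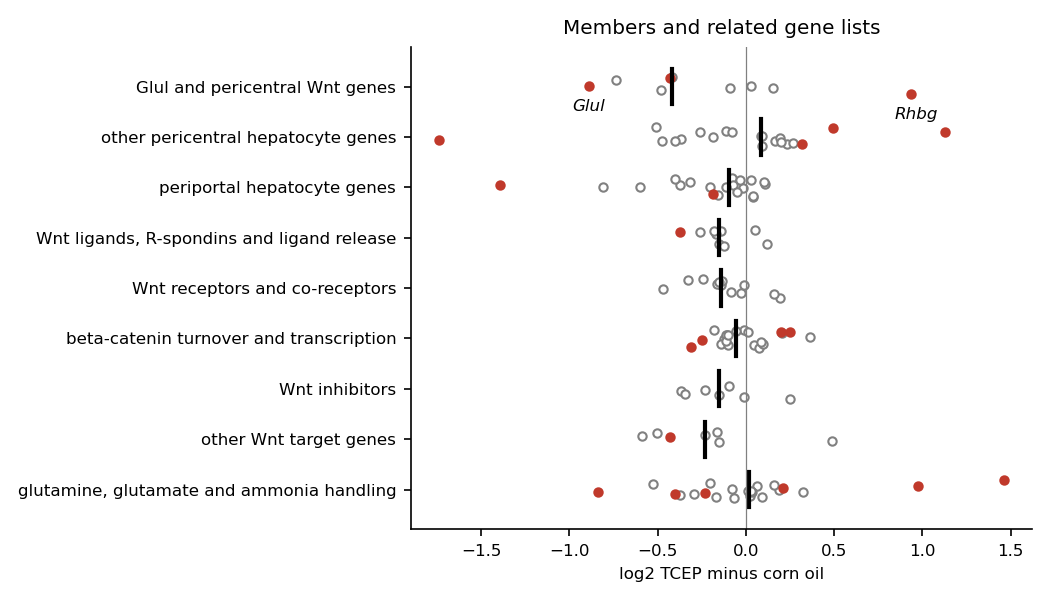
Log2 difference, TCEP minus corn oil, of every measured gene in the Glul set and in 8 related lists (limma, 3 animals per group); red points are genes whose groups do not overlap, open points overlap, black bars are list medians. Glul at -0.89 and Rhbg at 0.93 mark the ends of the set, and the other list medians lie between -0.23 and 0.09.

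The genes whose pattern over the 6 arrays was most like that of Glul were found by Pearson correlation among 10430 genes that had a symbol and were detected on every array. Among the closest were the olfactory receptor gene Or4d6 (r = 0.979), Serpind1, the plasma thrombin inhibitor heparin cofactor (0.978), Pals2, a scaffold protein of cell polarity (0.974), and Lrp4, a receptor of the LDL receptor family (0.972). The log2 differences of these genes lay between -0.44 for Lrp4 and -0.34 for Pals2. An r over 0.9 was reached by 99 genes, or 0.949%, and 0 of them were members. Among members the highest r with Glul were 0.545 for Slc1a2 and 0.539 for Tbx3, and the lowest was -0.832 for Rhbg. The 6 points share the treatment, slide and scan differences, so r describes these arrays alone.

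The tissue label was checked on its defining markers. All 8 listed hepatocyte markers were measured, and their summed signal was 5799 to 6529 times the 75th percentile in TCEP, against 6366 to 6809 times in corn oil. Albumin, transferrin (Tf) and Apoh had all TCEP values below all corn oil values, with log2 differences of -0.19 ± 0.09, -0.15 ± 0.09 and -0.09 ± 0.09 (SE). This pattern was seen in 7.06% of all genes. The second Tf probe gave -0.05. The other hepatocyte markers overlapped between groups, with log2 differences from -0.24 to 0.03. Of the 8 markers, 6 had a lower and 2 a higher mean in TCEP, while 49.1% of all genes had a lower mean. Summed endothelial markers (8 of 11 measured) ranged from 44.3 to 48.3 in TCEP, against 41.7 to 51.6 in corn oil, and macrophage markers (8 of 8) from 81.3 to 96.1 in TCEP, against 56.8 to 135 in corn oil. Stellate cell markers (7 of 7) ranged from 27.2 to 28.4 in TCEP, against 26.9 to 30.3 in corn oil. Cholangiocyte markers (5 of 6) ranged from 1.81 to 2.66 in TCEP, against 1.48 to 1.85 in corn oil, so the sums overlapped. Within that list Spp1 and Epcam had all TCEP values above all corn oil values, with log2 differences of 1.04 ± 0.35 and 0.52 ± 0.16 (SE). That upward pattern was seen in 10.3% of all genes. Cldn4 had all TCEP values below, with -0.30 ± 0.12, although its second probe gave 1.047. Krt19 (0.50 ± 0.24) and Krt7 (-0.27 ± 0.18) overlapped between groups. The part of these cells in the member differences was not tested. Lymphocyte markers (4 of 7), muscle and adipocyte markers (3 of 8) and astrocyte markers (3 of 4) overlapped between groups. Several sums mainly follow 1 bright gene. In TCEP replicate 1, Aldh1l1 gave 50.6 of the astrocyte sum of 50.8. Kdr gave 36.1 of the endothelial sum of 44.3, and Col3a1 16.1 of the stellate sum of 27.4.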

How the data were processed

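Total liver RNA of 6 rats was labelled with Cy3 and hybridised to 1-colour Agilent arrays. Per the file headers, the authors extracted signals with version 10.7.1.1 of Agilent Feature Extraction, which the submitters' processing notes list as 10.7. The deposited scanner files hold processed, spot and background intensity on a linear scale and other flags per spot. The authors' deposited value table is on a linear scale and was found to be a ratio to the array's 75th percentile: at least 99.77% of each column lay within 1% of a constant multiple of the scaled scanner signal, with column medians of 0.0956, 0.0972 and 0.0953 in TCEP and 0.1005, 0.1035 and 0.0962 in corn oil. It is neither centred per gene nor turned in direction. Further normalization by the authors is not given in the sources used here.

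Values are log2 processed signal minus the array's 75th percentile over 61657 non-control spots. The 64 outlier-flagged spots were set to missing, and 37043 probes were kept, each detected above background on every array of 1 group or both. Accessions were named through RefSeq (GRCr8), and each gene was read by its brightest probe. TCEP was compared with corn oil by two-sided tests in limma 3.58.1 under R 4.3.3, adjusted by Benjamini-Hochberg over 27642 genes, and the fit was tested on simulated data. The number of arrays limits the precision (median SE 0.145).

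Members and lists were chosen with earlier results of these data known. From each list the text names members past the threshold, or else the 2 brightest and up to 3 with the largest difference among those without overlap. Ctnnb1, Gls2 and Wnt2 were named beyond this rule after their values were seen. Marker lists stand as counts and sums, and the single markers named from them (Tf, Apoh and the cholangiocyte markers) were also chosen after their values were seen. Of 55 genes that the same selection gives over all lists, marker lists included, 30 had several probes, and the probes of 7 disagreed in direction (C1qa, Cldn4, Csnk1d, Csnk1e, Rnf43, Tcf7l1 and Ttr). Some genes that the rule selects are not reported here. The scanner files used here have no mean signal column, so normexp (offset 50) used the median signal. Replicates are separate animals, per the labels.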

Additional observations from a re-analysis of the deposited data

How the results depend on the processing

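In limma 0 genes passed the adjusted threshold in the 19 alternatives run (quantile normalization, median centring, normexp, the deposited table, outlier-flagged spots kept, 2 other filters, the mean over probes, every probe, slide as a random block, robust eBayes with a trend, the replicate block, the first scan day alone, which equals leaving out corn oil replicate 2, and each array left out). Genes at an unadjusted p under 0.05 numbered 1605 without TCEP replicate 3 and 3213 without corn oil replicate 3, against 2543. Glul stayed negative in each, between -0.997 and -0.79, and Rhbg positive, between 0.80 and 1.16. Keeping outlier-flagged spots, the 2 other filters, robust eBayes and the replicate block left both at -0.89 and 0.93. These settings are therefore no check on the 2 values, and the slide block cannot separate slide from treatment. The count of members lower without overlap was 1 with median centring and 1 with normexp, where Slc1a2 overlapped, and 2 to 3 with each array left out (3 without corn oil replicate 2, where Lect2 joined). The median of the other members ran from -0.42 (filter on all 6 arrays, which drops Lgr5) to -0.09 (without TCEP replicate 2). Of 148 values of the other members, 10 changed sign, all of them of Lgr5 and Rnf43. With the replicate number as a block, the Glul difference was -0.89 and limma gave 1901 genes with an unadjusted p under 0.05. Deviations of same-numbered animals from their group means correlated at -0.05, -0.16 and -0.02. With so few animals these values cannot show whether same-numbered animals were matched. Signal over background limits Lgr5 most.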
